A study of Solanum lycopersicum with 9 samples.

Results

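The comparison described here set 3 RNA-Seq libraries of WRKY-B-GFP tomato plants (OE1, OE30 and OE9) against 3 libraries of control CK2 (CK2_1, CK2_2 and CK2_3), 6 of the 9 libraries of the series. The libraries were chosen by their titles, and CK2 was used rather than the other control set, CK1, because the fold changes published for these plants are those against CK2. The WRKY-B-GFP plants carry the coding sequence of WRKY-B fused to GFP under the constitutive Pro35S promoter, in the cultivar Ailsa Craig by the study's methods, and the control is wild type by the same methods. The methods give axillary buds of the sixth node for both genotypes, whereas the sample labels give cultivar Compound raceme for both groups, flower as the tissue of WRKY-B-GFP and bud as that of CK2. By the labels, genotype and tissue therefore differ together between the groups and cannot be told apart. OE1, OE30 and OE9 may be 3 transgenic lines, which the sources do not state, and then each line has 1 library. CK1 is labelled monomaker bud, and its values are given beside those of CK2 where they bear on a result.

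WRKY proteins are plant transcription factors that bind W-box elements around a TTGAC core, and many act in defence, senescence and development. In Arabidopsis, relatives of WRKY-B such as WRKY71 act in shoot branching, in which a meristem forms in the axil of a leaf and the resulting bud either rests or grows out. Auxin from the shoot apex, strigolactone and cytokinin control that outgrowth. The table identifies genes by Solyc ID, in which the digits before the g give the chromosome. It holds no gene names, the RefSeq table of tomato genes used here held 0 of these IDs among its 41476 genes, and the study pairs an ID with a name only for WRKY-B. Lists for auxin, cytokinin, floral and photosynthetic genes, and the markers meant to check bud against flower, could therefore not be filled, and other loci are described by ID, level, chromosome and neighbourhood, without names or roles.

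The deposited values were FPKM (fragments mapped to a gene model, relative to library size and transcript length), listed for 33989 gene models. Summed FPKM was 743707 to 769380 in the CK2 libraries and 615715 to 684351 in the WRKY-B-GFP libraries. Read totals were not given, but among gene models with low values the most frequent ratio of a library to CK2_1 was 1 to 1.01 in the 8 other libraries (58 to 429 gene models each). Median-ratio scaling factors were 1.08 to 1.17 for WRKY-B-GFP and 0.890 to 0.904 for CK2, so the libraries were not alike by every measure. The number of gene models at 1 FPKM or more was 20566 ± 575 (SD, n = 3) in WRKY-B-GFP and 21615 ± 133 (SD, n = 3) in CK2. The groups did not overlap in this number (exact two-sided permutation test, p = 0.1, the smallest p that 3 libraries against 3 allow). Fold changes were differences of group means of log2(FPKM + 0.1), tested with limma-trend. The test covered the 24905 gene models that reached 0.5 FPKM in 3 or more of the 6 libraries. Calls required a change of at least 2-fold together with a p under 0.05 after Benjamini-Hochberg adjustment, and higher and lower refer to WRKY-B-GFP relative to CK2.

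WRKY-B (Solyc02g071130.3, on chromosome 2), the overexpressed gene, had 74.0 FPKM in OE1, with 93.5 FPKM in OE30 and 205.7 FPKM for OE9. The CK2 libraries had 0.40, 0.40 and 0.08 FPKM. All WRKY-B-GFP libraries thus lay far above all CK2 libraries, and OE9 stood highest, at 2.78 times the level of OE1. The log2 fold change was 8.31 (standard error 0.54, adjusted p = 3.89e-05 from limma-trend). WRKY-B stayed under 0.5 FPKM in all CK2 libraries. It thus passed the filter only through WRKY-B-GFP and had to differ, so this p adds nothing to the levels. WRKY-B ranked 833 of all gene models by mean FPKM in WRKY-B-GFP and 25435 in CK2. FPKM of the gene model does not separate transcripts of the transgene from those of the resident gene.

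Against this background the transcriptomes differed widely. Of the gene models tested, 49.0% were called, 25.8% as higher and 23.2% as lower in WRKY-B-GFP, and the groups did not overlap in 75.0% of all gene models tested. The sizes of the changes were not alike in both directions. The 6424 higher gene models had a median log2 fold change of 1.65 (interquartile range 1.30 to 2.22), and the 5773 lower ones a median of −2.70 (interquartile range −4.52 to −1.64), beside a median of 0.17 over all gene models tested. These medians include 724 higher and 2106 lower gene models that passed the filter only through the group where they were high and so had to differ. With them, a change of 4-fold or more was reached by 32.8% of the higher and 64.7% of the lower gene models. A change of 16-fold or more was reached by 270 higher and 1784 lower gene models, and one of 64-fold or more by 37 higher and 825 lower gene models. Many of these passed the filter only through the group where they were high and so had to differ, namely 734 of the 825 and 28 of the 37. Without such gene models, 113 were higher and 415 lower by 16-fold or more, and 9 and 91 by 64-fold or more. By 4-fold or more these were 1588 of the 5700 higher and 1751 of the 3667 lower gene models that remained. Medians without such gene models were not computed. Over all called gene models, the median of the higher ones went from 2.99 FPKM in CK2 to 10.8 FPKM in WRKY-B-GFP. That of the lower ones went from 10.7 FPKM to 0.927 FPKM. In CK1 these medians were 4.73 FPKM for the higher and 3.82 FPKM for the lower gene models. Because FPKM is relative to the library, scaling each library by its median ratio shifted the median of all gene models from 0.17 to −0.15 and gave 4631 higher and 6989 lower (39.9% of calls higher instead of 52.7%). With that scaling 32 gene models were higher and 880 lower by 64-fold or more, and these numbers were 8 and 236 with a pseudocount of 1 and 178 and 1596 with one of 0.01. Without OE1, OE30 or OE9, 11, 8 and 12 gene models were higher by 64-fold or more, and 90 were lower by as much without any 1 CK2 library. Without CK2_1, CK2_2 or CK2_3 the lower gene models numbered 3392, 3368 and 3390, because gene models expressed in CK2 alone then fail the filter, and 5410, 5405 and 5446 with the filter set to 2 libraries.

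**Figure D1:**
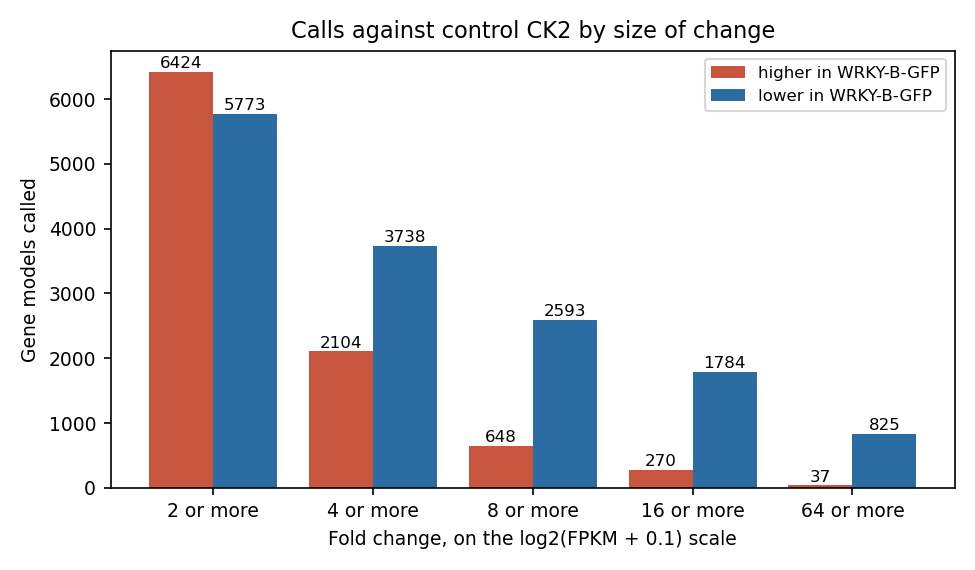
Number of gene models called higher (red) or lower (blue) in WRKY-B-GFP than in control CK2, by the smallest fold change required, on the log2(FPKM + 0.1) scale. From 4-fold upward the lower gene models outnumber the higher ones, and at 64-fold or more there are 825 lower and 37 higher, of which 734 and 28 passed the filter only through the group where they were high.

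A gene model was then counted as on in a group if all 3 of its libraries reached 1 FPKM, and as off if none exceeded 0.1 FPKM. By this count 1117 gene models on in CK2 were off in WRKY-B-GFP, whereas 74 on in WRKY-B-GFP were off in CK2. Of the 1117, 814 were at 0 FPKM in all WRKY-B-GFP libraries. These were not only weakly expressed gene models. Their median in CK2 was 7.70 FPKM (interquartile range 2.87 to 25.1), 112 had a mean of 100 FPKM or more, the highest was at 2656 FPKM, and together they made up 8.31% of the summed FPKM of CK2. By contrast, the 74 had a median of 3.94 FPKM in WRKY-B-GFP, none reached 100 FPKM, and they made up 0.0732% of its summed FPKM. The 74 depended on single libraries more than the 1117, since without OE1 they numbered 112 and the 1117 numbered 1225. In bulk samples, fewer cells of a type and less RNA per cell cannot be told apart, and genotype and labelled tissue cannot be told apart here either.

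Most of the 1117 were low in CK1 as well. Of these, 498 were off and 150 on in CK1, and 469 lay between. The CK1 mean was below 0.1 times the CK2 mean for 889 of the 1117 and for 107 of the 112 most abundant, and 54 of the 1117 were at or above the CK2 mean in CK1. Their median in CK1 was 0.0733 FPKM. For most of these gene models, CK2 thus stood apart from both other groups. Of the 74 gene models on in WRKY-B-GFP and off in CK2, 11 were on and 23 off in CK1. The comparisons with CK1 and CK2 share the WRKY-B-GFP libraries. Against CK1, 39.2% of gene models tested were called, 17.5% as higher and 21.8% as lower.

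The most abundant transcripts were among those that changed. Of the 100 gene models with the highest mean FPKM in CK2, 78 were lower in WRKY-B-GFP, 2 were higher and 20 were not called, with a median log2 fold change of −3.25. For 44 of these 100 the WRKY-B-GFP mean was more than 16-fold below the CK2 mean. Of the 100 most abundant gene models in WRKY-B-GFP, 58 were higher, 11 lower and 31 not called, with a median log2 fold change of 1.33, and only 32 gene models stood in both lists. Of all gene models tested, 23.2% were lower and 25.8% higher. Over 100 FPKM by the mean of all 6 libraries, 52.5% were called, beside 49.0% of all tested. Ranking by the level in a group favours gene models that are high there, so the counts of both lists are a description. With median-ratio scaling the counts were 85 lower for CK2 and 50 higher for WRKY-B-GFP. The CK2 list held 23.5% to 24.1% of summed FPKM in the CK2 libraries. In WRKY-B-GFP it held 9.42% in OE1, 8.27% in OE30 and 11.1% in OE9, and in CK1 17.1% ± 0.133 (SD, n = 3).

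**Figure D2:**
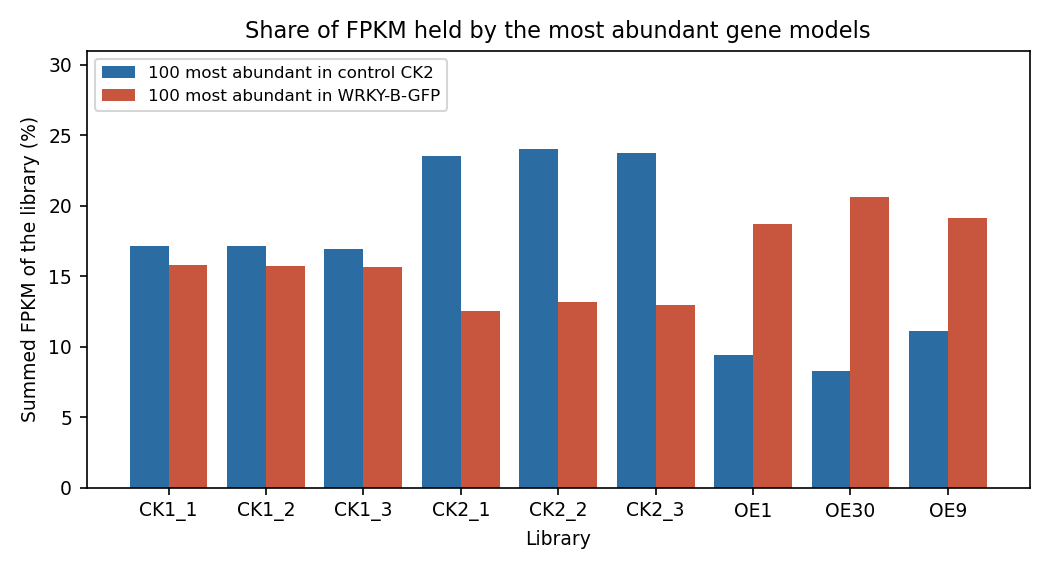
Percentage of each library's summed FPKM held by the 100 gene models most abundant in control CK2 (blue) and by the 100 most abundant in WRKY-B-GFP (red), with libraries on the x axis. The blue bars lie at 23.5% to 24.1% in the CK2 libraries and at 8.27% to 11.1% in the WRKY-B-GFP libraries, and those of CK1 lie between.

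The loci with the largest gain and loss of FPKM were abundant in both groups. Among called gene models with separated groups, the largest gain in mean FPKM was that of Solyc06g007510.3.1, which lies on the minus strand of chromosome 6 at 1499834 to 1505054 (build SL3.0). Its level was 450.1, 519.3 and 494.8 FPKM in CK2_1, CK2_2 and CK2_3. It reached 2760 FPKM in OE1, with 5150 FPKM in OE30 and 2296 FPKM in OE9. OE30 was the highest library. The groups were apart by the rule of choice, which also required a call. The log2 fold change was 2.71 (limma-trend, adjusted p = 0.000463, standard error 0.32). It ranked 4 by mean FPKM in WRKY-B-GFP and 183 in CK2.

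The gene model with the second largest gain, Solyc07g065840.2 on chromosome 7, was at 963, 1057 and 1012 FPKM in the CK2 libraries. It reached 3693 FPKM in OE1, with 4430 FPKM in OE30 and 3200 FPKM in OE9, and the groups were apart by the same rule. The log2 fold change was 1.89 (limma-trend, adjusted p = 0.000298, standard error 0.20). In CK1 both gene models lay between the groups, at 703 ± 19.4 FPKM (SD, n = 3) for Solyc06g007510.3.1 and 1759 ± 40.7 FPKM (SD, n = 3) for Solyc07g065840.2.

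The largest loss was that of Solyc09g089510.3.1, which lies on the plus strand of chromosome 9 at 69682775 to 69695319 (build SL3.0). It was the second most abundant gene model of CK2, at 4856, 5417 and 5113 FPKM in CK2_1, CK2_2 and CK2_3. It had 260.5 FPKM left in OE1, with 53.2 FPKM in OE30 and 261.6 FPKM for OE9. OE30 was the lowest library, with a 4.92-fold range within the group. All 3 lay below CK2, again by the rule of choice. The log2 fold change was −5.06 (limma-trend, adjusted p = 0.000581, standard error 0.63). CK1 had 426 ± 7.89 FPKM (SD, n = 3). The difference from CK1, −1.47 on the log2 scale, did not pass the test (limma-trend, adjusted p = 0.0784, standard error 0.62).

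Solyc03g098790.3, on chromosome 3, was the third most abundant gene model of CK2, at 4727, 5067 and 4782 FPKM. It had 227.1 FPKM in OE1, with 68.3 FPKM in OE30 and 897 FPKM in OE9, a 13.1-fold range within the group. All 3 lay below CK2 by the same rule, and also below CK1, where the level was 2069 ± 55.6 FPKM (SD, n = 3). The log2 fold change against CK2 was −4.33 (limma-trend, adjusted p = 0.00483, standard error 0.87) and that against CK1 −3.10 (limma-trend, adjusted p = 0.0202, standard error 0.86).

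**Figure D3:**
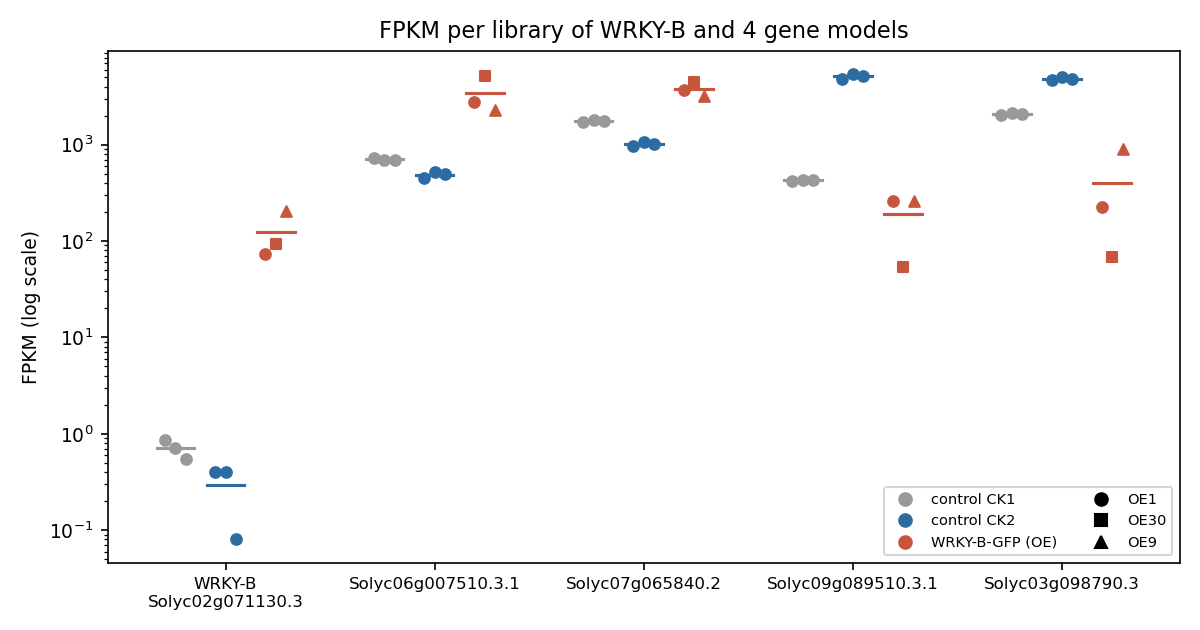
FPKM on a log axis of WRKY-B and the 4 gene models with the largest gain or loss in mean FPKM, for each library of control CK1 (grey), control CK2 (blue) and WRKY-B-GFP (red, with a symbol per library). Bars are group means, and the 4 gene models other than WRKY-B were chosen among those whose groups do not overlap.

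Some stretches of neighbouring loci were called in the same direction. To follow this, the FPKM of the gene models of a locus was summed and the 20953 loci tested were put in ID order. Of these, 48.1% were called, 24.1% as higher and 24.1% as lower. Runs of 5 or more consecutive tested loci called in the same direction numbered 27 for higher loci, holding 152 of 5043, and 50 for lower loci, holding 297 of 5044. No test of these numbers was made. The longest run was one of 13 lower loci on chromosome 9 that includes Solyc09g089510. Their CK2 means ranged from 23.7 to 5129 FPKM with a median of 235 FPKM, and 10 were at 100 FPKM or more. In WRKY-B-GFP their means ranged from 0.267 to 1289 FPKM with a median of 39.8 FPKM. A run holds only called loci, so an adjusted p under 0.05 follows from its choice. Groups did not overlap in 99.7% of all lower gene models, so separation within a run adds little to the calls. The 3 WRKY-B-GFP libraries lay below the 3 CK2 libraries at all 13 loci. The log2 fold changes ran from −7.60 to −1.23 with a median of −5.42, and the largest adjusted p of the run was 0.0128 (limma-trend). OE30 was the lowest WRKY-B-GFP library at 11 of the 13 loci and OE9 the highest at 8. CK1 means lay between those of the groups at 12 of the 13, and 9 of the 13 were also called lower against CK1.

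**Figure D4:**
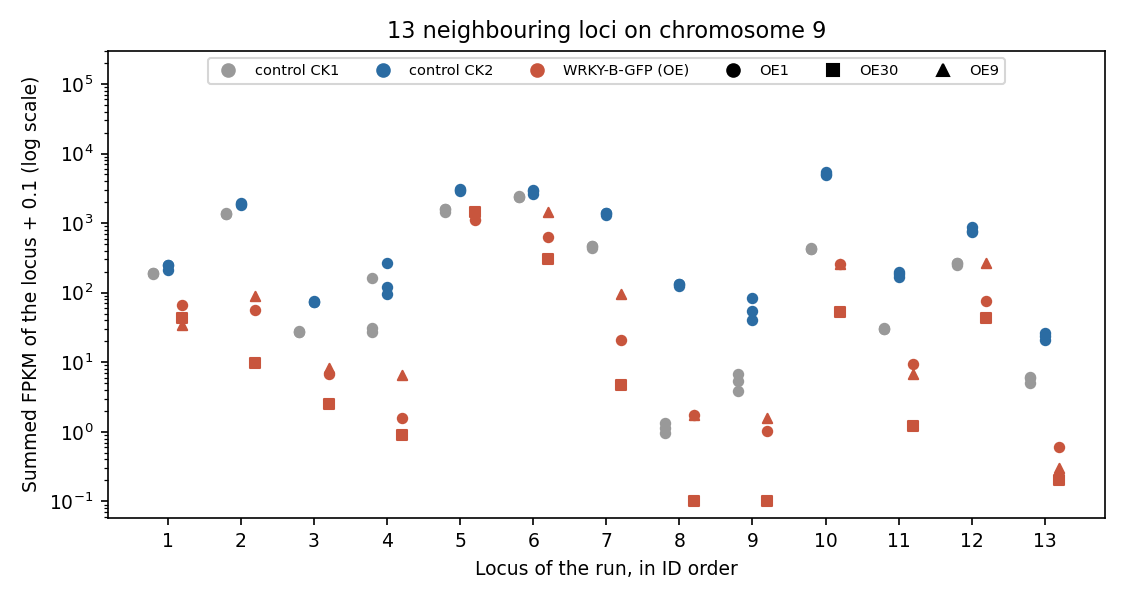
Summed FPKM (with 0.1 added, log axis) of the 13 loci of the chromosome 9 run in ID order, for each library of control CK1 (grey), control CK2 (blue) and WRKY-B-GFP (red, with a symbol per library). The run was chosen to hold only loci called lower. At all 13 loci the WRKY-B-GFP libraries lie below those of CK2, and OE30 is the lowest WRKY-B-GFP library at 11 of them.

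The longest run in the other direction was one of 9 higher loci on chromosome 3. It lay at lower levels, with CK2 means of 0.997 to 26.1 FPKM and WRKY-B-GFP means of 6.25 to 104.7 FPKM. The log2 fold changes ran from 1.21 to 2.46, the largest adjusted p was 0.00718 (limma-trend), and 5 of the 9 were also called higher against CK1. These loci too were in the run because they were called.

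On each chromosome, between 46.5% and 53.1% of the gene models tested were called, unplaced sequence (chromosome 0) included. On chromosome 10, 22.9% were higher and 28.6% lower, and on chromosome 12, 24.3% were higher and 27.3% lower. On every other chromosome the higher share exceeded the lower one, by the least on chromosome 6 (24.9% and 24.5%), but with median-ratio scaling the lower share exceeded the higher one on all of them. With that scaling, 16.4% were higher and 34.1% lower on chromosome 10 and 16.7% and 32.7% on chromosome 12. The excess of lower calls was then 5.91 to 11.3 percentage points on the other chromosomes, below that on both of these. Chromosome 7 had the smallest lower share, 19.9% as deposited and 24.9% scaled. All gene models on in CK2 and off in WRKY-B-GFP were themselves called, passed the filter only through CK2 and had to differ. As a part of the lower calls, they are no separate support. They were most frequent on chromosomes 10 and 12, at 4.94% and 5.04% of the gene models listed there. On the others the share was 2.39% to 3.90%. These shares were not tested.

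**Figure D5:**
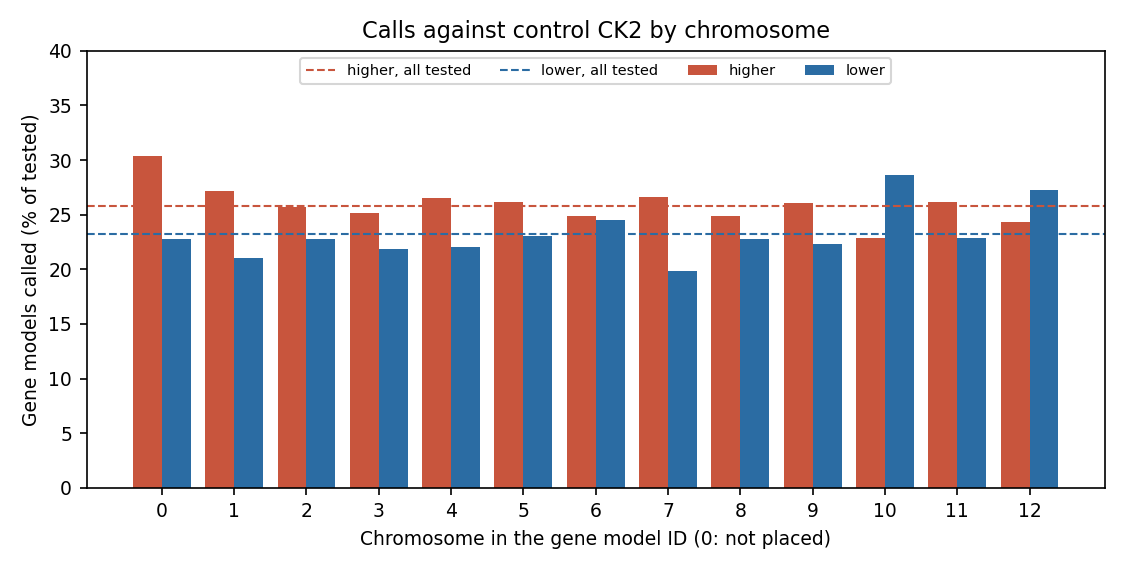
Gene models called higher (red) and lower (blue) in WRKY-B-GFP than in control CK2, as a percentage of those tested on each chromosome, with the shares over all gene models tested as dashed lines (25.8% higher, 23.2% lower). On chromosomes 10 and 12 the lower share exceeds the higher one with FPKM as deposited, whereas with median-ratio scaling it does so on every chromosome.

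The share of calls varied with level. Of gene models whose mean over the 6 libraries was over 100 FPKM, 20.0% were higher and 32.5% lower, and of those at 3 to 10 FPKM, 27.9% were higher and 21.5% lower. With median-ratio scaling the lower share was the larger at both levels, with 15.3% higher and 38.6% lower over 100 FPKM and 20.3% and 26.2% at 3 to 10 FPKM. Below 1 FPKM, 22.1% were higher and 31.4% lower. The filter on low values contributed to the calls. Of the higher gene models, 724 were under 0.5 FPKM in all CK2 libraries, and of the lower ones 2106 were under 0.5 FPKM in all WRKY-B-GFP libraries. Such gene models entered the test only through the group where they were high and had to differ.

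The table lists up to 2 gene models per locus, whose IDs carry 1 or 2 suffixes, and these did not move alike. Of the gene models with 1 suffix, 21.6% were higher and 25.6% lower, and of those with 2 suffixes, 35.1% were higher and 17.0% lower. The median log2 fold change was 0.00047 with 1 suffix and 0.55 with 2, so the classes were offset as a whole. At the 3615 loci where both were tested, both were higher at 608 and both lower at 335. The model with 2 suffixes was higher while its partner was lower at 81 loci, and the opposite held at 26. The ratio of the models was then tested at 3083 loci with a mean sum of 5 FPKM or more and over 0.5 FPKM for each model, a test chosen after the values were seen. The ratio changed by 2-fold or more at 33.2% of these (limma with Benjamini-Hochberg adjustment over the loci tested), at 725 toward the model with 2 suffixes and at 298 toward the model with 1 suffix. Leaving out any 1 library gave 571 to 661 and 214 to 283. The median change of the log2 ratio was 0.34 toward the model with 2 suffixes, so the counts include this general offset. Solyc gene models with coordinates and gene models with 2 suffixes both numbered 7975. Among the named gene models only those with 2 suffixes had coordinates. What else separates the models is not stated in the sources, and reads shared between them could be split by the counting. Apart from these, 448 gene models had IDs that are not Solyc IDs. Of the 364 of these tested, 34.1% were higher and 34.3% lower, beside 25.8% and 23.2% of all gene models tested. Of the 448, 63 were on in CK2 and off in WRKY-B-GFP, beside 1117 of all 33989. The reverse held for 1, beside 74 of all.

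Among the WRKY-B-GFP libraries, OE30 was most often the farthest from CK2. Of the higher gene models, OE30 was the highest library for 41.6%, OE1 for 31.1% and OE9 for 26.8%. Of the lower gene models, OE30 was the lowest for 44.8%, OE1 for 20.8% and OE9 for 8.31%, with ties in 26.1%. With median-ratio scaling OE30 remained the most frequent in both, at 47.2% and 43.1%. WRKY-B itself was highest in OE9, and whether distance from CK2 goes with its level was not tested. OE30 also had the fewest gene models at 1 FPKM or more (19969, beside 20612 in OE1 and 21117 in OE9). It had the most gene models at 0 FPKM (7393, beside 6712 in OE1 and 6465 in OE9). Over the gene models tested, the median SD of log2(FPKM + 0.1) was 0.29 in WRKY-B-GFP, 0.12 in CK2 and 0.10 in CK1, and the SD exceeded 1 for 2008 gene models in WRKY-B-GFP and 669 in CK2. Of the 6228 gene models tested whose groups overlapped, 2755 had WRKY-B-GFP libraries both above and below all CK2 libraries.

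Loci assigned to WRKY-B ChIP-Seq peaks were compared as a group chosen on a measure other than RNA level. The ChIP-Seq was made in WRKY-B-GFP plants, so the choice may still depend on which loci are expressed there. The study assigned each peak to its closest gene, so a listed locus need not be bound at its promoter. The list, read from a page-based supplement, held 1978 loci, whose IDs may carry reading errors. The study describes peaks shared by replicates, but the first peak names of the list carry OE_9 only. The RNA values are from OE1, OE30 and OE9. The peaks were thus compared with libraries that may be of other lines. Of these, 1716 were in the RNA-Seq table and 1458 passed the filter after summing gene models, beside 20953 of all 27028 loci. Of these 1458, 335 (23.0%) were higher and 355 (24.3%) lower, beside 24.1% and 24.1% of all loci tested. Their median log2 fold change was 0.05 (interquartile range −1.04 to 0.96), beside 0.12 (interquartile range −1.03 to 0.99) over all loci tested. The shares of assigned loci that changed by 2-fold or more thus lay near the background in both directions. Against CK1, 259 of 1454 tested were higher and 350 lower (41.9% called), beside 38.9% of all loci. A decrease of 64-fold or more was called for 13 assigned loci (0.892%), beside 3.59% of all loci tested, and an increase of that size for 0, beside 24 of all loci. Of the assigned loci in the table, 10 (0.583%) were on in CK2 and off in WRKY-B-GFP, beside 3.36% of all loci, and 4 (0.233%) the reverse, beside 0.155%. No test was made of these shares. Whether the low shares of loci lost or off in WRKY-B-GFP follow from the choice of the list in those plants was not tested.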

How the data were processed

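RNA-Seq of tomato was compared between 3 WRKY-B-GFP libraries and 3 control CK2 libraries, with 3 control CK1 libraries beside them. The deposited table gives FPKM for each gene model in each library, with coordinates on build SL3.0 for some gene models, and columns of fold changes, p-values and q-values of their own comparisons, which were not used. The submitters' processing notes list RSEM 1.2.12, HISAT2 2.0.4, DESeq2 1.4.5 and Bowtie2 2.2.5, with no roles given, while the methods name SL4.0.

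FPKM are not counts, so limma-trend (limma 3.58.1, R 4.3.3) was run on log2(FPKM + 0.1) with the 6 libraries, with a minimum of 0.5 FPKM in 3 libraries. Remaining steps ran in Python 3.11.15 (scipy 1.17.1, pandas 2.3.3, numpy 2.4.6). The fit was tested on simulated data. The methods describe pooled plants per biological replicate, but the labels do not tie libraries to separate plants, so p-values measure only the spread between these libraries, which may be technical. The groups and lists were chosen with earlier results of these data known. With no table pairing IDs and names, the rule for named genes gave WRKY-B and the 2 higher and 2 lower gene models with the largest difference in mean FPKM, among called gene models with separated groups whose higher group averaged at least 5 FPKM. ID order served as locus order, and of 7975 Solyc gene models with coordinates 7969 lie on the chromosome of their ID. This compares the chromosome only, not the order along it. In the run of 13 lower loci, 2 gene models had coordinates. Alternatives were other pseudocounts, filters and scaling, all 9 libraries in 1 fit, summed loci and leaving out each library.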

Additional observations from a re-analysis of the deposited data

How the results depend on the processing

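The counts of 6424 higher and 5773 lower gene models stayed within 1.5 times under pseudocounts of 1 and 0.01, no filter, a minimum of 1 FPKM, median-ratio scaling, all 9 libraries in the fit and summed loci (4631 to 6777 higher, 4961 to 6989 lower). Leaving out 1 library gave 5525 to 6661 higher and 3368 to 6367 lower (6195 at most with the filter unchanged). The low end, 3392, 3368 and 3390 lower without CK2_1, CK2_2 or CK2_3, follows from the filter, since gene models expressed in CK2 alone then cannot reach 0.5 FPKM in 3 libraries. With a minimum in 2 libraries, an alternative chosen after seeing the data, these counts were 5410, 5405 and 5446. The number lower by 64-fold or more went from 825 to 236 with a pseudocount of 1 and to 1596 with 0.01, and the number higher from 37 to 8 and to 178. The number higher by that much was 11, 8 and 12 without OE1, OE30 or OE9, and 90 were lower without any 1 CK2 library. With a minimum in 2 libraries these were 56, 31 and 44, and 815 to 829. Summed loci gave 24 higher. With on set at 5 FPKM, 638 gene models were on in CK2 and off in WRKY-B-GFP and 15 the reverse, and leaving out 1 library gave 1147 to 1251 and 91 to 112. WRKY-B and the 4 other named gene models kept their direction and passed the test under every alternative run on them. The fits without OE1, OE30 or OE9 did not include WRKY-B, which then reached 0.5 FPKM in too few libraries. The 4 others were chosen among called gene models, so their passing is no separate support. Other settings for gene lists were not run because no list could be filled. No paired analysis was possible because the titles of the compared groups share only the number 1. Counting error could not be given without read totals.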
